A study of Rattus norvegicus with 7 samples.

Results

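Cytosolic ribosomal protein genes encode the proteins that, with ribosomal RNA, build the small and the large subunit of the ribosome. They were followed across 7 Affymetrix rat arrays. Genes were taken whose symbol in the platform annotation was Rpl or Rps with a number, or Rplp0, Rplp1, Rplp2 or Rpsa, without the S6 kinase genes and without pseudogene symbols. Each was read from its brightest probe set over the 7 arrays, among probe sets annotated with a single symbol. This gave 41 genes of 4736 distinct symbols, 29 of the large and 12 of the small subunit, with 60 probe sets in all. Of the genes a reader might look for, Rplp1, Rplp2, Rps18, Rpl32, Rps27a, Rpl22l1, Rpl10a, Rps4x, Rpl36a and Rpl36al had no probe set with their symbol alone. A further 40 probe sets listed several symbols with a ribosomal protein among them, and were described only as a set.

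The arrays held RNA from primary cultures of hippocampal neurons and of hippocampal astrocytes from Wistar rats, kept in DMEM with glutamine, the N1 supplement, penicillin and streptomycin. Grape seed extract, a polyphenol-rich plant extract, was given for 24 h. Neuron cultures received 0, 1 or 10 µg/ml and astrocyte cultures 0, 1, 10 or 100 µg/ml, with 1 array for each of the 7 combinations. The labels give the age of the rats as 17 days and do not say whether before or after birth, nor whether cultures of different doses came from the same animals. The untreated arrays differ from the treated ones only in the extract, as far as the labels say.

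Ribosomal proteins are made in nearly equal amounts, since each mature ribosome carries a single copy of most of them. In mammals their transcripts share a terminal oligopyrimidine (TOP) tract, a run of C and T that starts at the cap and lets the kinase mTOR set how well the whole family is translated. In neurons these transcripts are also carried into axons and dendrites, and several family members have roles outside the ribosome, such as binding the p53 inhibitor Mdm2.

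The starts of the transcripts were looked up for this shared tract, in the RefSeq promoter table for the rat assembly GRCr8, where 36 of the 41 genes were matched. A run of at least 8 C or T in any order, reaching into the 25 bases on either side of the annotated start, was found on the transcript strand for 28 of the 36 (77.8%), against 24.6% of all 33469 promoters. On the other strand such a run was found for 5 of the 36 (13.9%), against 26.0% of all promoters. With a minimum of 6 bases the shares were 86.1% of the genes and 49.7% of all promoters on the transcript strand. On the other strand they were then 36.1% and 53.1%. The motif CTTTC, which lies inside such runs when they hold it, was found in the same window for 19 of the 36 (52.8%) and in 6.39% of all promoters; on the other strand it was found for 1 (2.78%) against 6.45%. The lines that follow show some of the genes whose values are described, each from 30 bases before the annotated start to 20 bases from the start on. The longest run of C and T is in capitals where it has at least 6 bases. Rpl11 and Rps27l, last, had no such run in the window.
Rplp0, chr12:46718371-46718420, minus strand: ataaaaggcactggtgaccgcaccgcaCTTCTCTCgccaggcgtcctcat
Rpl19, chr10:83519034-83519083, plus strand: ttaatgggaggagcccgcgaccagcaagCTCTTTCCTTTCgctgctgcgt
Rpl13a, chr1:104748894-104748943, minus strand: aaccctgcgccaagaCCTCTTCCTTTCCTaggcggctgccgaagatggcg
Rpl35a, chr11:81235002-81235051, minus strand: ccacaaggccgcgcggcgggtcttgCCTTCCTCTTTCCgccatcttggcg
Rps15, chr7:10068096-10068145, minus strand: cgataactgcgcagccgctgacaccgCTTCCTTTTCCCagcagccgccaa
Rps24, chr16:96487-96536, plus strand: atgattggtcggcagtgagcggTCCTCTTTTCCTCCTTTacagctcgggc
Rps3a, chr2:173827023-173827072, minus strand: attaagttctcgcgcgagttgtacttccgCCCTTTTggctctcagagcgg
Rps23, chr2:23814487-23814536, plus strand: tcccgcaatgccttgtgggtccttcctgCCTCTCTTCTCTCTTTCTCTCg
Rpl11, chr5:153560783-153560832, minus strand: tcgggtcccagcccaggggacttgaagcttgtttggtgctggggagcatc
Rps27l, chr8:76443628-76443677, plus strand: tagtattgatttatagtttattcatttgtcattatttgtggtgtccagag

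In 7 of the 8 genes with capitals the run covers the annotated start itself, and in Rpl13a it ends just before. The genes shown are a choice, and this share does not hold for the family. Among matched genes not shown, the longest run covered the start in some, such as Rpl14 and Rpl31. It lay to 1 side of the start in others, such as Rpl7a, Rpl21, Rps3, Rps16 and Rpl26. An annotated start can lie some bases from the true cap, and a match in letters is a description of the window only.

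Read from the brightest probe set of each gene, a choice that raises its rank, the family was among the brightest signals on every array. In neurons the median signal of the 41 genes was 6981 units untreated, 7325 units at 1 µg/ml and 7270 at 10 µg/ml. In astrocytes it was 9184.5 units untreated and 8509.8, 7288.3 and 6653.6 with rising dose. That median stood between the 97.2th and the 98.5th percentile of all probe sets of its array. The 41 probe sets carried 4.95% to 5.20% of all signal in neurons, and 5.79%, 5.75%, 5.18% and 5.09% in astrocytes from the lowest to the highest dose. Signals of different probe sets do not rank genes by RNA amount, since probes differ in how strongly they bind. The brightest probe sets were those of Rpl3, which lies near the peptidyl transferase centre (23745.5 to 28721.3 units), Rpl23 (21092.5 to 26078.7) and Rps29 (17318.7 to 20716.0). The dimmest were those of Rpl5 (46.0 to 81.0 units), Rpl30 (43.8 to 85.6) and Rpl17 (67.0 to 105.5). Rpl5 and Rpl30 did not pass the filter on low signals, and the remaining 39 genes entered the comparisons.

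Trimmed mean signals lay between 500.731 and 500.874 units on all arrays. Scaling during processing can set such a likeness, so it does not show that the arrays are comparable. The median signal of all probe sets was 88.05, 87.85 and 84.9 units in neurons with rising dose. In astrocytes it fell from 84.4 units untreated to 80.15, 73.5 and 65.4. Its part in the dose changes was not tested. The ratio of 3′ to 5′ probe set signal for β-actin, a measure of how complete the labelled RNA is, was 10.5 to 10.8 in neurons and 8.92 to 10.6 in astrocytes, and that for GAPDH was 2.67 to 3.24 and 1.90 to 2.66. Within astrocytes the array at 100 µg/ml had the highest β-actin ratio (10.6) and the lowest GAPDH ratio (1.90). The 6 neuron markers measured summed to 15072.3 to 15881.3 units in neurons and 619.4 to 1354.0 in astrocytes. The 5 that passed the filter were all called higher in neurons by limma's test. Of these, Nefl, Snap25 and Nell2 passed the filter only through their neuron signal, so their calls are no independent evidence. Map2 and Gap43 passed it in both cell types. Syt1 was at most 30.9 units everywhere. The astrocyte list summed to 58743.4 to 59059.7 units in neurons and 63124.5 to 72635.9 in astrocytes, and its members split: of 7 tested, 2 were called higher in neurons and 3 in astrocytes. Slc1a3, a glutamate transporter, read 9643.9 to 9877.2 units in neurons and 965.6 to 4161.6 in astrocytes. Microglia and macrophage markers summed to 2402.7 to 2665.0 units against 6391.7 to 11788.7, and oligodendrocyte markers to 701.2 to 777.2 against 5801.5 to 7539.9. Fibroblast and meningeal markers summed to 40398.5 to 43027.4 units against 70584.4 to 86609.8. Most of their neuron sum was Vim, at 24234.8 to 27365.6 units in neurons and 23933.3 to 27796.4 in astrocytes. Others differed far more, such as Igf2 (85.5 to 111.4 against 9605.1 to 11101.6) and Col3a1 (340.1 to 537.3 against 10704.8 to 14652.4). Both kinds of culture thus carried marker signals of other cell types, astrocyte markers in the neuron cultures included. Their part in the values that follow was not tested. In such bulk samples, fewer cells of a type and less RNA per cell cannot be told apart.

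The signals of the family varied little. From its dimmest to its brightest array, a gene differed by a median of 1.38-fold over the 7 arrays (1.20-fold for Rps29 to 2.30-fold for Rpl19l4, n = 39). For 333 probe sets of other genes with a mean signal over 4000 units, the median was 1.65-fold and the highest value 130-fold. Within the 3 neuron arrays the medians were 1.11-fold for the family and 1.11-fold for the other bright probe sets, and within the 4 astrocyte arrays 1.31-fold and 1.36-fold. Among genes often used as references in quantitative PCR, Rpl19 spanned 1.22-fold over the 7 arrays, Rplp0 1.36-fold and Rpl13a 1.45-fold. The steadiest after Rps29 were Rpl3 (1.21-fold) and Rpl41 (1.22-fold), which encodes a very small basic peptide. These ranks rest on the brightest probe set: the second of Rps29 ran from 5894.2 to 8316.4 units and was at -0.50 log2 in astrocytes at 100 µg/ml, against -0.12 for the brightest.

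**Figure D1:**
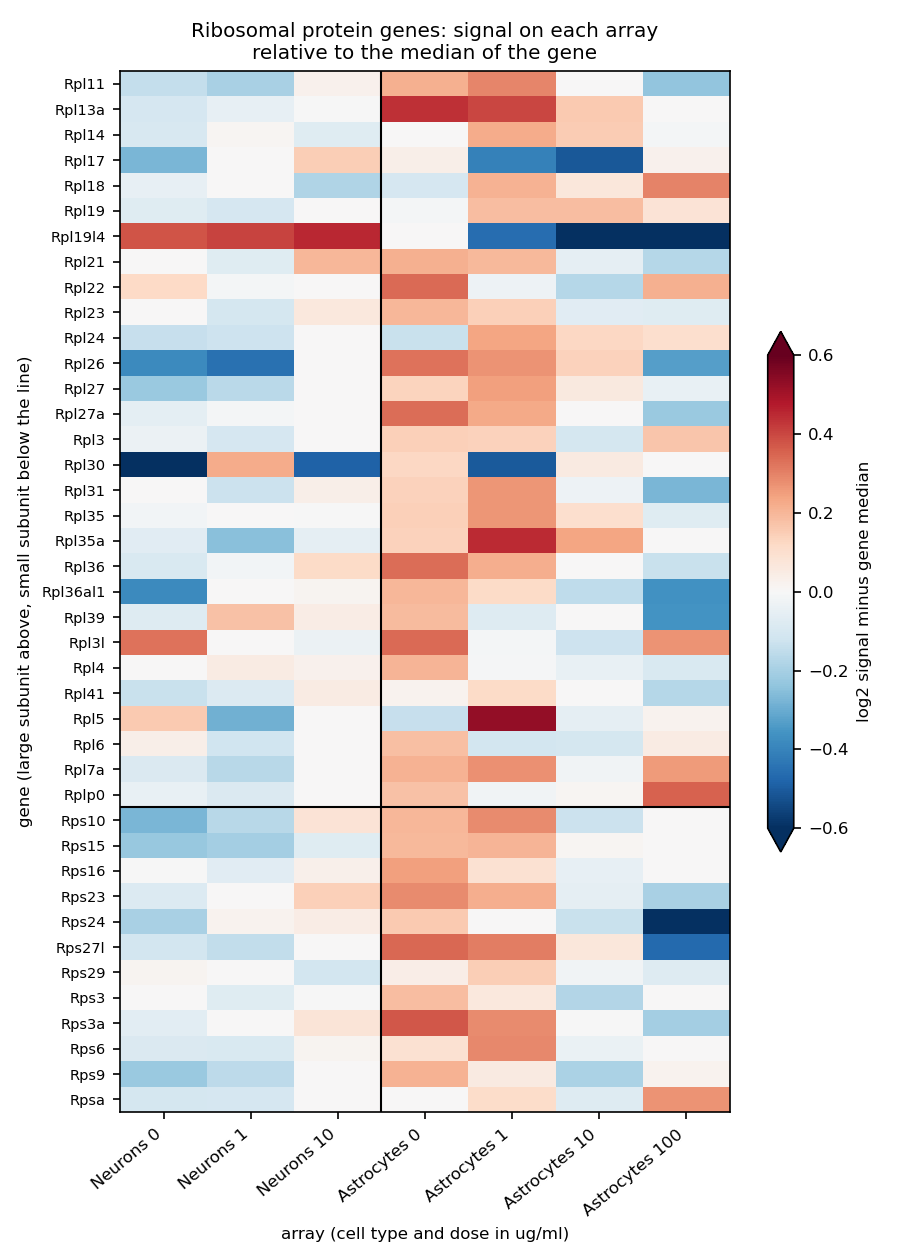
Log2 signal of each of the 41 ribosomal protein genes on each of the 7 arrays (columns, with the dose in µg/ml), minus the median of that gene over the 7 arrays; red is higher and blue lower, and colours stop at 0.6 log2. From left to right, 30, 27 and 10 of the 41 genes lay below their own median on the neuron arrays, and 4, 9, 23 and 20 on those of astrocytes.

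Neurons and astrocytes were compared over the 3 doses they share, 3 arrays against 3, which gives the mean difference over those doses. On that mean most ribosomal protein genes stood slightly lower in neurons. Of their 39 differences (neurons minus astrocytes, log2) 35 were below 0, as were 44.4% of all 4709 probe sets tested. The median difference was -0.15 for the family, 0.07 for all probe sets and 0.06 for the other very bright ones. All 12 small subunit genes were below 0, between -0.33 for Rps27l and -0.05 for Rps3. The differences were small: their median size was 0.16 log2, against 0.42 for all probe sets. In limma's test with Benjamini-Hochberg adjustment over all probe sets, 7 of the 39 genes passed 0.05, 6 lower and 1 higher in neurons, where 44.3% of all probe sets passed in either direction and 19.3% were lower. The family's share of calls, 17.9%, was thus below that of the arrays as a whole. The 3 neuron arrays all lay below the 3 astrocyte arrays for 8 of 39 genes, where the same held for 24.2% of all probe sets, and above them for 1 of 39, against 32.4%. The gap was not alike at each dose. The median signal of the 41 genes in neurons and astrocytes was 6981.2 and 9184.5 units untreated and 7325.0 and 8509.8 at 1 µg/ml. At 10 µg/ml it was 7270.2 and 7288.3 units, and the family held 5.20% of all signal in neurons and 5.18% in astrocytes.

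Rpl26, a protein at the exit of the tunnel for the growing chain that also binds p53 mRNA, read 3643.0, 3490.4 and 4754.5 units in neurons with rising dose and 5952.3, 5737.4 and 5226.1 in astrocytes. At these shared doses every neuron array was below every astrocyte array. The astrocyte array at 100 µg/ml, not in this comparison, read 3785.0 units, below the neuron array at 10 µg/ml. The difference was -0.52 log2 (SE 0.13, adjusted p = 0.014).

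Rpl35a, one of the family members mutated in Diamond-Blackfan anaemia, read 4926.8, 4338.3 and 4980.4 units in neurons against 5687.8, 7032.4 and 6086.5 in astrocytes, a difference of -0.40 log2 (SE 0.11, adjusted p = 0.018). Rpl13a, which in other cells can leave the ribosome to silence mRNAs, read 9062.4, 9385.3 and 9708.7 units against 13163.7, 12841.8 and 10847.6, a difference of -0.38 (SE 0.09, adjusted p = 0.011). For both genes no neuron array reached the lowest of these astrocyte arrays.

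Rps15, whose tail reaches the decoding site, was at 5928 ± 351 units in neurons (SD, n = 3) and 7325 ± 540 in astrocytes (SD, n = 3), or -0.30 log2 (adjusted p = 0.026). Rps27l, a close relative of Rps27 that p53 induces, was at 3309 ± 179 and 4161 ± 423 units (SD, n = 3 each), or -0.33 log2 (adjusted p = 0.035). Rpl27 was at 5300 ± 430 and 6402 ± 427 units (SD, n = 3 each), or -0.27 log2 (adjusted p = 0.046). In these 3 genes too the arrays of the cell types did not overlap at the shared doses. The astrocyte array at 10 µg/ml was the lowest of the 3 in each. Another Rps15 probe set went the other way (0.20 log2), and with the mean over its probe sets Rps15 was at -0.12 (adjusted p = 0.31 by limma) and did not pass. Rpl26 and Rpl27 did not pass with that mean either (adjusted p = 0.056 and 0.15).

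Rpl19l4, annotated as a copy of Rpl19, went the other way. It read 545.2, 555.6 and 573.1 units in neurons and 419.1, 305.8 and 254.3 units in astrocytes at the same doses, a difference of 0.80 log2 (SE 0.19, adjusted p = 0.010), and 248.9 units in astrocytes at 100 µg/ml. Rpl19 itself read 12679.4, 12420.5 and 13340.6 units in neurons and 13213.6, 15150.2 and 15189.4 in astrocytes, a difference of -0.18 (SE 0.08, adjusted p = 0.11) that did not pass. The probe sets named Rpl19l4, Rps27l, Rpl36al1 and Rpl3l may also bind transcripts of their parent genes or other copies, which was not tested, so each value is that of the probe set so annotated.

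Other members with known extra roles did not pass. Rps6, the substrate of the S6 kinases, was at 10178 ± 441 units in neurons and 11476 ± 1311 in astrocytes (SD, n = 3 each), or -0.17 log2 (SE 0.10, adjusted p = 0.19). Rplp0, the base of the stalk that recruits elongation factors, was at 17018 ± 521 and 18247 ± 1370 units (SD, n = 3 each), or -0.10 log2 (adjusted p = 0.32). Rpsa, also known as the laminin receptor, was at 10174 ± 427 and 10762 ± 697 units (SD, n = 3 each), or -0.08 log2 (adjusted p = 0.44). Rpl22 differed by -0.01 log2 (SE 0.13, adjusted p = 0.95), with neuron signals of 15926.8, 14569.4 and 14681.5 units inside the astrocyte range of 13059.4 to 18599.9.

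**Figure D2:**
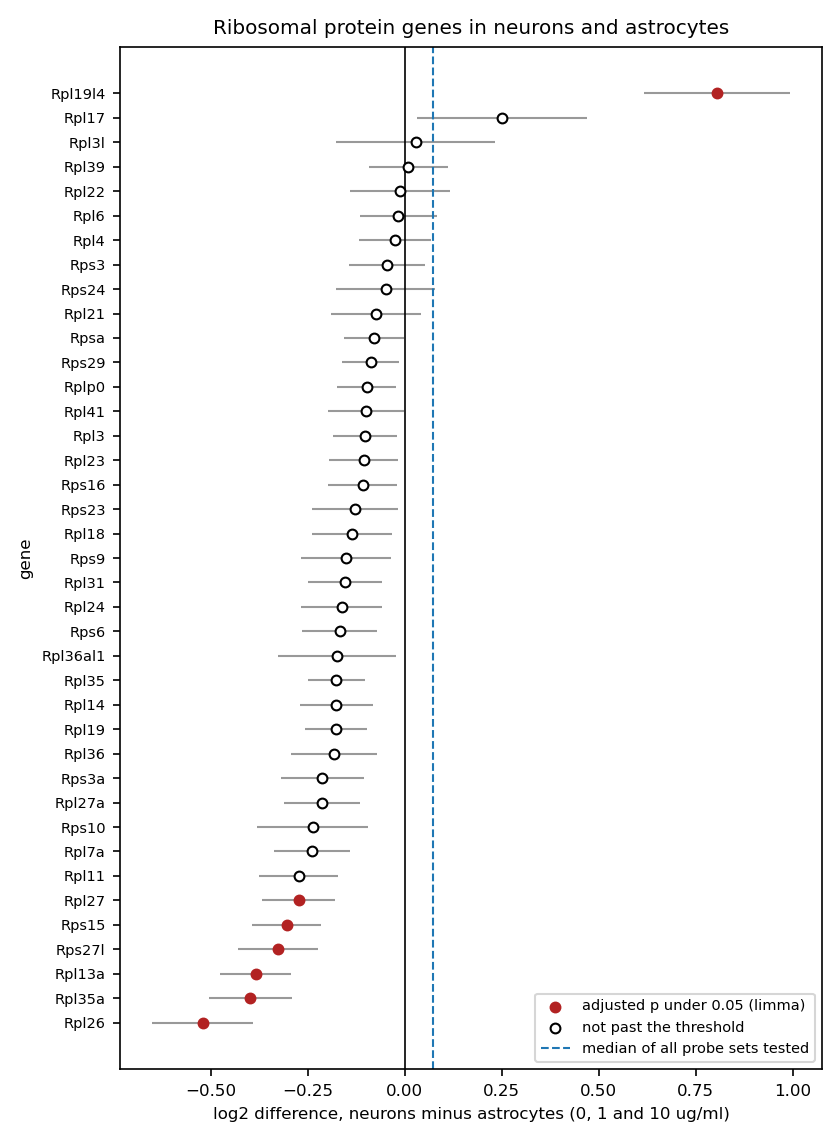
Difference in log2 signal between 3 neuron and 3 astrocyte arrays at 0, 1 and 10 µg/ml for the 39 ribosomal protein genes tested (points) with the standard error of the fit (bars); filled points passed an adjusted p of 0.05, and the dashed line is the median of all probe sets tested. Of the points, 35 lie below 0, from -0.52 for Rpl26, and Rpl19l4 stands alone at 0.80.

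The count of calls was sensitive to the fit. With dose as a block, 3 of the 7 remained past the threshold, Rpl13a (adjusted p = 0.035), Rpl26 (0.036) and Rpl19l4 (0.020). With the astrocyte array at 100 µg/ml added, 1 gene was called, and without the untreated neuron array also 1. Leaving out neurons at 1 µg/ml gave 2 calls and leaving out astrocytes at that dose gave 3, whereas without the astrocyte array at 10 µg/ml 15 were called. The direction was shared by probe sets the choice of the brightest did not use: 16 of the 18 other probe sets of the same genes and 36 of the 38 probe sets with several symbols were below 0, with medians of -0.20 and -0.24 log2. Of these 3 (16.7%) and 13 (34.2%) passed the test, all lower in neurons. Over all probe sets 44.3% passed in either direction and 19.3% were lower. Such probe sets are not independent of the members, as they can read the same transcripts.

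The response to grape seed extract was then described in each cell type, array by array, against the untreated array of that cell type. The changes share that untreated array, and with 1 array per dose they carry no test. In neurons the family stayed close to the untreated level at 1 µg/ml, with a median change of 0.02 log2 and 18 of 39 genes below 0, where 50.3% of all 4453 probe sets were below 0. At 10 µg/ml most genes stood slightly higher: 6 of 39 were below 0, against 51.9% of all probe sets, and the median was 0.10 log2 against -0.01. No gene changed 1.5-fold in either direction at either dose. Over all probe sets, 1.73% were lower and 1.86% higher by that fold at 1 µg/ml, and 3.5% and 1.46% at 10 µg/ml.

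The highest neuron changes at 10 µg/ml were those of Rpl17 (0.42 log2), Rpl36al1 (0.40) and Rpl26 (0.38), and the lowest those of Rpl3l (-0.36), Rpl18 (-0.13) and Rps29 (-0.13). Rpl36al1, a copy of the Rpl36a gene, read 893.8, 1165.6 and 1180.5 units at 0, 1 and 10 µg/ml, so both treated arrays were above the untreated one. Rpl17 and Rpl3l, the muscle-type relative of Rpl3, had signals of 78.8 to 105.5 and 84.3 to 108.0 units, close to the filter of 79.9 units. At 1 µg/ml the genes farthest from 0 were Rpl36al1 (0.38 log2), Rpl17 (0.27) and Rpl39 (0.25), and below 0 Rpl3l (-0.32), Rpl35a (-0.18) and Rpl6 (-0.15). Rpl39, which lines the exit tunnel, read 6156.2, 7325.0 and 6695.4 units.

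In astrocytes the changes were larger. At 1 µg/ml the median was -0.04 log2 and 23 of 39 genes were below 0, against 51.2% of all 4252 probe sets. None changed 1.5-fold, where 5.01% of probe sets were lower and 4.56% higher by that fold. The lowest were Rpl19l4 (-0.45), Rpl17 (-0.44) and Rpl22 (-0.37), and the highest Rpl24 (0.37), Rpl18 (0.31) and Rpl35a (0.31). Rpl24, which forms a bridge between the subunits, read 11263.5, 14537.1, 13468.8 and 13250.3 units at 0, 1, 10 and 100 µg/ml, so all 3 treated arrays were above the untreated one.

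At 10 µg/ml 34 of 39 genes stood below the untreated astrocytes, against 60.3% of all probe sets, and all 12 small subunit genes did. The median was -0.25 log2, against -0.10 for all probe sets and -0.10 for the other very bright ones. Only Rpl19l4 (-0.72 log2) was 1.5-fold lower, where 9.97% of all probe sets were, and none was 1.5-fold higher, against 9.5%. After it the lowest were Rpl17 (-0.54), Rpl22 (-0.51) and Rpl3l (-0.47), and the highest Rpl24 (0.26), Rpl19 (0.20), Rpl18 (0.17) and Rpl14 (0.15). Rpl22 read 18599.9, 14357.3, 13059.4 and 17040.2 units from 0 to 100 µg/ml, lowest at 10 µg/ml and back near the untreated level at 100. The 18 other probe sets of the same genes had a median of -0.04 log2 with 10 below 0, and the 38 with several symbols a median of -0.17 with 32 below 0. The size at 10 µg/ml thus depended on the probe sets read.

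At 100 µg/ml the changes of all probe sets spread out, with quartiles of -0.80 and 0.18 log2 against -0.34 and 0.18 at 10 µg/ml. The family spread out less, with quartiles of -0.46 and -0.08 against -0.34 and -0.10. Its median was -0.19 log2 with 32 of 39 genes below 0, against -0.26 and 65.9% for all probe sets, -0.14 for the bright ones and -0.05 for the very bright ones outside the family. Relative to the median of all probe sets the family's median was 0.07, so its direction depends on the scale; at 10 µg/ml it stayed below 0 on that scale, at -0.15. At least 1.5-fold lower were 4 genes, where 33.7% of all probe sets were, and none was 1.5-fold higher, where 11.9% were. Read from its brightest probe set, none of the 39 genes changed 2-fold on any array. The 38 probe sets with several symbols reached further down in astrocytes at 100 µg/ml. There 7 fell 1.5-fold or more from untreated, and 3 of these fell 2-fold or more. Their lowest value was -1.19 log2, and none rose 1.5-fold. From 10 to 100 µg/ml Rps24 alone of the 39 genes was 1.5-fold lower (-0.66 log2), and no gene was higher by that fold. Over all probe sets 29.3% and 10.6% were.

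Rps24, needed to process the small subunit RNA and mutated in Diamond-Blackfan anaemia, read 918.3, 823.6, 750.4 and 473.3 units in astrocytes from 0 to 100 µg/ml, a change of -0.96 log2 at the highest dose. In neurons it read 720.8, 836.0 and 849.9 units. Rps27l read 4459.7, 4346.1, 3677.2 and 2543.1 units in astrocytes (-0.81 log2 at 100 µg/ml), and Rpl26 5952.3, 5737.4, 5226.1 and 3785.0 (-0.65). In these 3 genes each astrocyte array was below the array of the next lower dose, with the widest step between 10 and 100 µg/ml. Rpl19l4, by contrast, had reached its low level by 10 µg/ml.

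Rps3a, a small subunit protein near the exit of the mRNA channel, read 14134.0, 13292.2, 10907.6 and 9502.5 units in astrocytes (-0.57 log2 at 100 µg/ml), and Rpl36al1 1336.6, 1263.2, 1048.5 and 907.1 (-0.56). Both had a lower signal at each higher dose. Such a decline at every dose step was seen in 13 of 39 genes, where 14.5% of all probe sets had it, and a rise at every step in none, against 6.21%.

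At the other end, Rpl18 read 4942.1, 6118.0, 5543.8 and 6498.8 units in astrocytes (0.40 log2 at 100 µg/ml), Rpsa 10668.6, 11499.8, 10116.0 and 12864.4 (0.27), and Rplp0 19810.4, 17257.7, 17673.3 and 22426.7 (0.18). Rpl24 (0.23), Rpl19 (0.10) and Rpl7a (0.04) were the next highest. In Rpsa and Rplp0 the array at 100 µg/ml was the brightest of all 7. The second Rpsa probe set, at 10078.1, 10248.1, 9628.7 and 9551.2 units in astrocytes, was at -0.08 log2 there, the opposite sign.

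**Figure D3:**
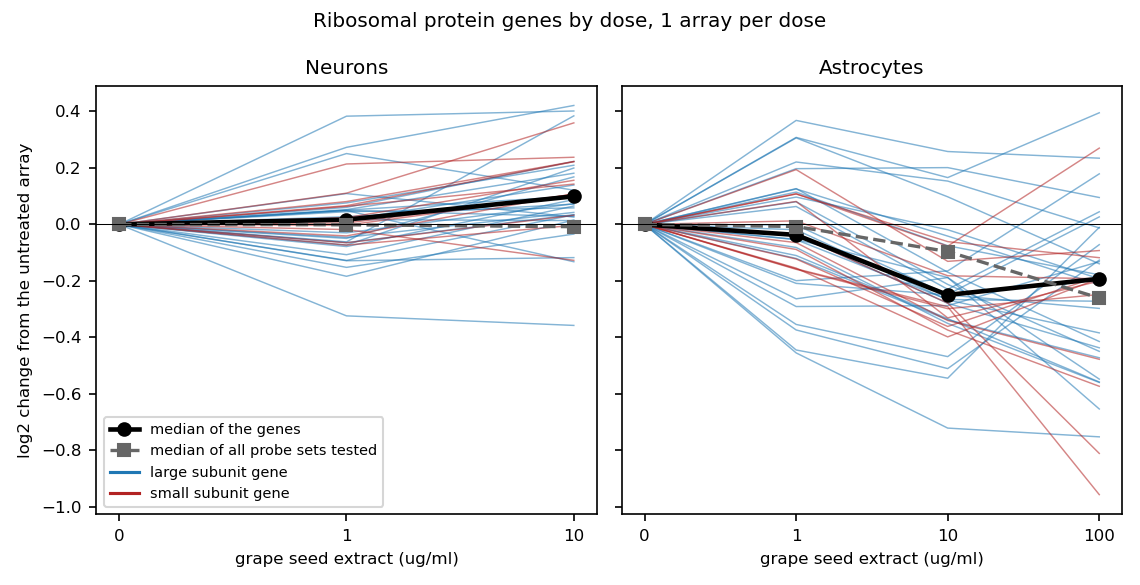
Log2 change of each ribosomal protein gene (thin lines; blue for the large and red for the small subunit, n = 39) from the untreated array of the same cell type, by dose in µg/ml, 1 array per dose. The thick black line is the family's median (0.10 at the right of the neuron panel, -0.25 and -0.19 at the last pair of astrocyte doses) and the dashed grey line the median of all probe sets tested (-0.01, -0.10 and -0.26).

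A dose trend was fitted with limma over the 7 arrays, as the change in log2 signal per unit of log10(dose + 1), which leaves 3 residual degrees of freedom. In astrocytes 8 of 39 genes passed an adjusted p of 0.05, all lower with dose, where 20.6% of all probe sets passed, 15.5% lower and 5.03% higher. Both the share of calls and the median slope, -0.12 log2 per unit against -0.13 for all probe sets, were near those of the arrays as a whole. The genes that fell were Rps24 (-0.46, adjusted p = 0.034), Rps27l (-0.41, 0.020), Rpl26 (-0.32, 0.040), Rps3a (-0.29, 0.023), Rpl27a (-0.28, 0.030), Rpl11 (-0.26, 0.048), Rps23 (-0.25, 0.043) and Rpl13a (-0.23, 0.044). Rpl11, which like Rpl5 binds Mdm2 when ribosome assembly fails, read 10108.7, 10686.5, 8725.8 and 7404.3 units, and Rps23, a protein of the decoding centre, 9628.9, 9208.3, 7607.0 and 6916.5. Rpl27a read 9184.5, 8509.8, 7288.3 and 6240.3 units. These calls depended on the fit: none was made with the astrocyte arrays fitted alone, with ranked doses, with no filter, or without any 1 neuron array or the astrocyte array at 1 or 100 µg/ml, and 1 was made without the untreated astrocyte array.

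In neurons no gene and none of the 4709 probe sets passed (0%). At an unadjusted p under 0.05 there was 1 ribosomal protein gene, Rpl26, and 1.91% of all probe sets. The slopes were above 0 for 34 of 39 genes, with a median of 0.09 log2 per unit against -0.01 for all. The difference between the slopes of the cell types, tested in the same fit, passed for none of the 39 genes (8 at an unadjusted p under 0.05) and for 0.0212% of all probe sets (11.1% unadjusted). The estimated difference, neurons minus astrocytes, was above 0 for 34 of 39 genes, with a median of 0.27 against 0.13 for all probe sets.

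Probe sets of the same gene did not always read alike. Of 16 genes with more than 1 probe set, those that differed most in astrocytes at 100 µg/ml were Rpl3l (-1.99 and -0.07 log2), Rpl13a (-0.44 and 0.20), Rps15 (-0.35 to 0.20), Rpl21 (-0.38 to 0.13) and Rpl26 (-0.65 and -0.25). The second Rpl3l probe set read 16.0 and 17.6 units at 10 and 100 µg/ml, at or under the floor of 17.9. The second Rpl13a probe set read 4166.3, 4711.5 and 3355.5 units in neurons and 4530.1, 5126.4, 4599.8 and 5203.2 in astrocytes, with no decline by dose. The second Rpl11 probe set, at 2634.0, 2919.1, 2698.6 and 1465.3 units in astrocytes, was -0.85 log2 at 100 µg/ml, further down than the brightest (-0.45). At 100 µg/ml 11 of the 18 other probe sets had the sign of the brightest one, as did 11 of 18 at 10 µg/ml and 16 of 18 in the comparison of cell types.

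The family divided by the number in the gene symbol between 10 and 100 µg/ml, a pattern that was noticed in the values and has no test. Ribosomal proteins were numbered by their place on gels, roughly from large to small, so the number is a coarse guide to protein size. Over 33 genes with a plain number, the change from 10 to 100 µg/ml had a Spearman rho of -0.55 with the number; genes are not independent replicates, and all share the same pair of arrays. Of 9 genes numbered up to 10, 2 were lower at 100 than at 10 µg/ml, with a median of 0.16 log2. Of 16 genes numbered above 20, 15 were lower, with a median of -0.15. Over all probe sets 61% were lower. The signal moved with both, weakly: its rho was 0.32 with the change and -0.28 with the number, and its part in the pattern was not tested. In 37 probe sets with several symbols of 1 number the medians were 0.11 (5 of 14 lower) and -0.21 (10 of 11 lower), with a rho of -0.29. In 17 other probe sets of the member genes they were 0.13 (1 of 4 lower) and -0.17 (6 of 9 lower), with a rho of -0.27. After quantile normalization the medians over the 33 genes were 0.03 and -0.30, with a rho of -0.48. At 10 µg/ml against untreated the rho was 0.34 in astrocytes and 0.10 in neurons. At 100 µg/ml against untreated it was -0.24, with 7 of the 9 low-numbered and 15 of the 16 high-numbered genes below 0.

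**Figure D4:**
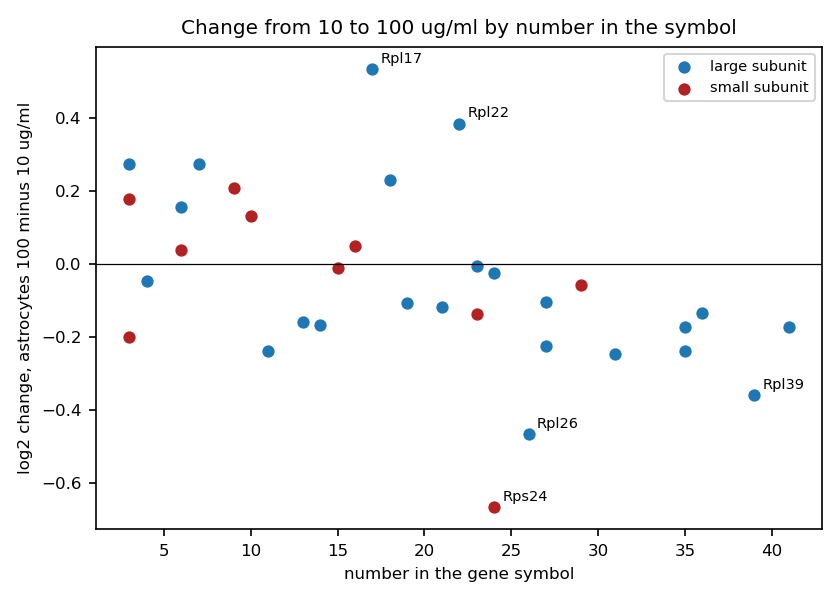
Log2 change in astrocytes from 10 to 100 µg/ml (1 array each) against the number in the gene symbol for 33 ribosomal protein genes, blue for the large and red for the small subunit; genes beyond 0.3 log2 are named. Of the genes numbered above 20, 15 of 16 lie below 0, and of those up to 10, 2 of 9 do.

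The genes with and without a long run of C and T at their start were set side by side without a test. At 100 µg/ml in astrocytes the 28 genes with a run of at least 8 had a median of -0.21 log2 and the 8 without -0.16. At 10 µg/ml the medians were -0.26 and -0.23. The genes with a run include Rpl5 (run of 11 bases, 0.16 log2 at 100 µg/ml), which did not pass the filter on low signals. With a minimum of 6 bases, the medians at 100 µg/ml were -0.20 for 31 genes with a run and -0.19 for 5 without. At 10 µg/ml both were -0.25. With a minimum of 10 bases, the medians at 100 µg/ml were -0.23 for 24 genes with a run and -0.10 for 12 without. At 10 µg/ml they were -0.26 and -0.23. Among the genes shown by sequence, Rps24 and Rps23 have runs of 17 and 21 bases, and Rps27l and Rpl11 none over 4. All 4 were taken from the genes called lower with dose in astrocytes, so they cannot show whether the run and the change go together.

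Other genes of the translation machinery were described in astrocytes at 100 µg/ml, where 33.7% of all probe sets were 1.5-fold lower and 11.9% higher, with a median of -0.26 log2; no difference between lists was tested. Of 8 genes with TOP transcripts or products bound to the ribosome, the median was -0.02 log2. Eif4a2, an RNA helicase of initiation, was the lowest at -1.56 (1037.7 units untreated, 352.9 at 100 µg/ml), and Hnrnpa1, an RNA-binding protein, the highest at 0.63. Naca, which shields nascent chains, was at -0.50. Of 10 ribosome biogenesis genes, 3 were 1.5-fold lower, a share near that of all probe sets, and 2 higher, with a median of -0.48. They included Ubtf, a factor of RNA polymerase I (-1.63, from 120.7 to 38.9 units), Top1 (-0.94) and Polr1b, a polymerase I subunit (1.01). Of 14 translation factors, 7 were 1.5-fold lower and 2 higher, with a median of -0.48. Eif5, which triggers GTP hydrolysis at the start codon, was at -2.04 (315.5 to 76.6 units), Eef2k, the kinase that stops elongation, at -1.73 and Eif2b1 at -1.48. Of 9 regulators in the mTOR, S6 kinase and MYC list, 4 were 1.5-fold lower and 1 higher, with a median of -0.42; Mlst8, an mTOR partner, was at -3.45 (206.7 to 18.9 units), Mtor at -1.66 and Mxi1 at -1.25.

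The ribosomal proteins of mitochondria form a separate family that makes the few proteins encoded by mitochondrial DNA. Of 13 such genes, 8 were 1.5-fold lower and 2 higher at 100 µg/ml, with a median of -0.84 log2, against 33.7% and 11.9% of all probe sets. At 10 µg/ml their median was 0.02. Mrpl50 read 292.9, 339.1, 232.7 and 81.5 units from 0 to 100 µg/ml (-1.85 log2 at the highest dose), Mrpl44 231.0, 242.9, 191.9 and 71.0 (-1.70) and Mrpl13 1675.1, 1762.0, 1280.0 and 669.7 (-1.32). The mitochondrial genes had signals far below those of the cytosolic family, and dimmer probe sets were lower at 100 µg/ml on these arrays as a whole (-0.26 for all probe sets against -0.14 for bright ones). The part of signal level in this contrast was not tested. Between the cell types, 5 of 10 ribosome biogenesis genes were called, all 5 higher in neurons (median 0.37 log2), among them Nop58 at 0.76, where 25% of all probe sets were called higher. Of the 14 mitochondrial genes in that fit 1 was called, against 44.3% of all probe sets.

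**Figure D5:**
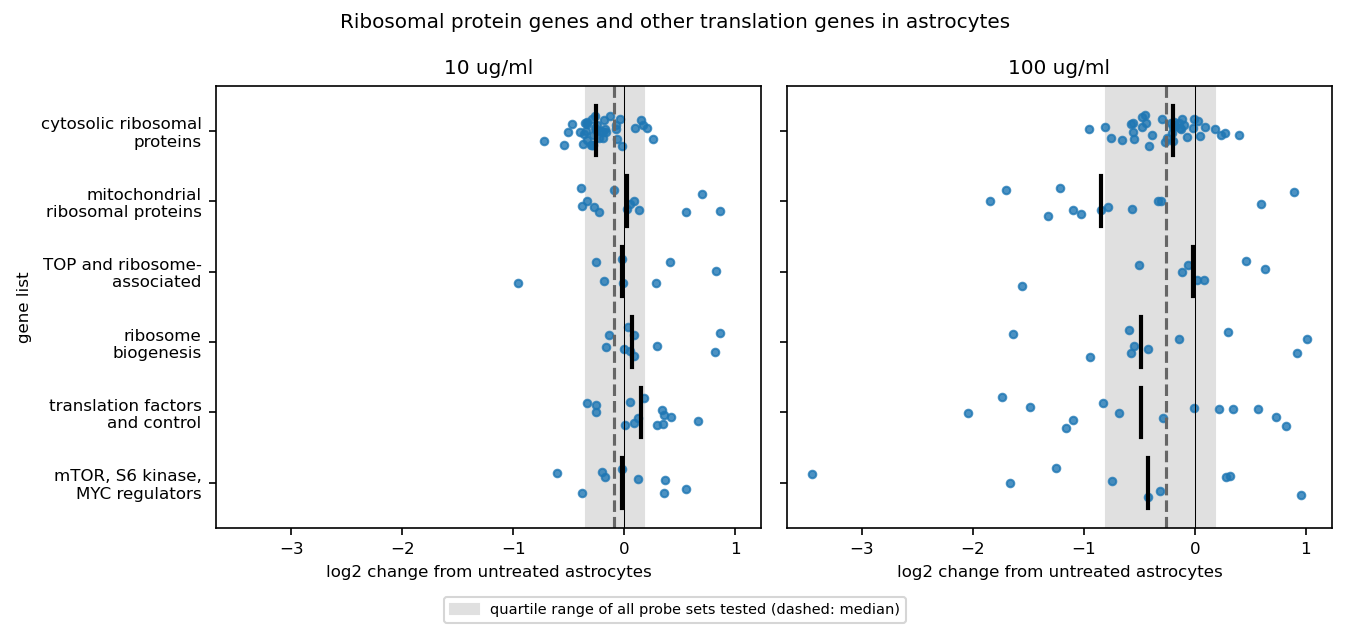
Log2 change from untreated astrocytes at 10 µg/ml (left) and 100 µg/ml (right), 1 array each, for the 39 cytosolic ribosomal protein genes and 5 other lists of translation genes (points, spread vertically at random; black bars are list medians). Grey shading is the quartile range of all probe sets tested and the dashed line their median; the cytosolic family lies at -0.25 and -0.19, and the mitochondrial list at 0.02 and -0.84.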

How the data were processed

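The deposited values are linear signal intensities made with GCOS, per the submitters' processing notes. Which version and scaling target were used is not given here. RNA (100 ng) was amplified and labelled in a 2-cycle procedure, per the labels' protocols. Of 8799 probe sets 59 controls were left out; 7006 carried 1 platform symbol, 308 several and 1426 none. By gene ID, 40 of the 41 members were found in RefSeq, with the same symbol. Signals under the 25th percentile (17.9) were raised to it before log2. A probe set was tested if its mean log2 signal in a cell type exceeded the log2 median signal (79.9): 4453 in neurons, 4252 in astrocytes, 4709 in either, which entered the fits. Bright means above the 75th percentile (435.7). Models were fitted in R 4.3.3 by limma 3.58.1 (lmFit and eBayes, trended prior), with 4 residual degrees of freedom between cell types and 3 for dose trends, and were tested on simulated data. Figures used Python 3.11.15 and matplotlib 3.10.9.

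The members, lists, tests and naming rule were chosen with earlier results of these data known. Named were fixed reference genes, the genes with the largest differences and changes in each comparison, the brightest and dimmest, those whose probe sets disagree most, and the 3 largest changes at 100 µg/ml per translation list; others were chosen after their values were seen. Arrays stand for doses, not repeated cultures, so p-values measure only the spread between these arrays, and the number of arrays limits the precision. Brightest probe sets of 10 genes were of a type that can bind several transcripts (_s_at), which can mix family members and pseudogenes.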

Additional observations from a re-analysis of the deposited data

Results flagged for a closer look

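In 12 of 39 ribosomal protein genes both treated neuron arrays stood above the untreated neurons while all 3 treated astrocyte arrays stood below the untreated astrocytes, where 9.91% of 3996 probe sets tested in both cell types did so. The reverse held for none of the 39 genes and for 5.33% of the probe sets. Among the 12, Rpl17 had signals of 67.0 to 105.5 units, close to the filter of 79.9. At 100 µg/ml in astrocytes it read 97.0 units against 97.7 untreated (-0.01 log2). The change at 10 µg/ml in neurons minus that in astrocytes was 0.97 log2 for Rpl17, 0.79 for Rpl19l4, 0.75 for Rpl36al1, 0.62 for Rps9, 0.56 for Rps23, 0.55 for Rpl36, 0.53 for Rps24, 0.52 for Rps3a, 0.39 for Rpl27a, 0.38 for Rpl13a, 0.31 for Rpl39 and 0.28 for Rpl4. All treated arrays of a cell type share 1 untreated array, and on the untreated astrocyte array 4 of the 41 genes lay below their own median over the 7 arrays. The direction of each gene was not tested; the slope difference, a test over all doses, called none of them.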

How the results depend on the processing

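Against 7 calls between the cell types, there was 1 with all 7 arrays and 1 with no filter, 3 with dose as a replicate block (the labels give no replicate numbers, so dose stands for the pairing), 4 with a constant variance prior, 4 without probe sets of shared or incomplete type and 11 with arrays centred on bright probe sets. The 18 other probe sets and the 38 with several symbols gave 3 (16.7%) and 13 (34.2%), against 44.3% of all probe sets in the main fit. Leaving out each array gave 1 to 15, with 1 without the neuron array at 0 µg/ml, 2 without that at 1, and 3 and 15 without the astrocyte arrays at 1 and 10. Rpl13a kept its call in 14 of 16 settings, and Rps27l in 6. Against 8 calls for the astrocyte trend, there were 0 with that cell type alone, with ranked dose and with no filter, and 2 with a constant prior or bright centring. Leaving out each array gave 0 to 10, with 0 without any neuron array or the astrocyte arrays at 1 or 100 µg/ml, and 1 without the untreated one. Neuron trends and slope differences gave 0 calls throughout, 0 to 0 when arrays were left out. The astrocyte median at 1 µg/ml (-0.04) became 0.10 with the other probe sets and 0.070 with several symbols. That at 10 µg/ml (-0.25) became -0.041 with the other probe sets and -0.15 relative to all probe sets. That at 100 µg/ml (-0.19) became -0.064 with bright centring, -0.32 after quantile normalization, -0.28 against 1 µg/ml and 0.068 relative to all probe sets. The other-probe-set and several-symbol settings were chosen after seeing the data. The cause of these shifts was not tested. The number of arrays, 1 per combination, limits every value.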
